A study of Homo sapiens with 6 samples.

Results

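Antisense long noncoding RNAs were examined in BT549 cells after knockdown of basonuclin-2 (BNC2), each next to the gene it is named for. They were taken as the rows of the gene count table whose symbol ends in -AS and 1 digit, which are 149 of 23346 rows. For 141 of them the table also holds a row for the name before -AS, here called the sense partner, and these are 137 distinct genes. Such RNAs are generally transcribed from the strand opposite to a protein-coding gene, either across it or away from a start site the 2 genes share. A few in this set lie apart from the gene they are named for. Some are known to act on the chromatin or the transcript of their partner, some act elsewhere, for instance by binding microRNAs, and some serve mainly as hosts of small nucleolar RNAs. Many have no known function, and most are made at far lower levels than messenger RNAs.

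BT549 is a mesenchymal breast cancer cell line, used here without genetic change. Cells received 20 nM of either negative control (NC) siRNA or an equal mix of 3 siRNAs against BNC2, a zinc finger protein, and RNA was prepared 6 days later. Labels name Lipofectamine 2000 as the reagent and the methods RNAiMax. Poly(A) RNA of 3 biological replicates of each treatment was sequenced as stranded single-end reads. The comparison of the treatments asks which transcripts depend on BNC2, and all values come from this 1 line and 1 time.

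The 6 libraries held 16093978 to 18246254 counts on genes. BNC2 itself had 65.6, 51.5 and 58.6 CPM (counts scaled to library size with TMM factors) with NC siRNA and 35.5, 36.6 and 41.6 CPM with BNC2 siRNA, so that 64.6% was left (log2 fold change -0.63 ± 0.09 SE). The mesenchymal marker VIM was at 2982 to 3513 CPM and FN1 at 756 to 1029 CPM, whereas the epithelial genes EPCAM and ESRP1 were at 0 counts in each library and CDH1 had 1 count in all. Of the 7 mesenchymal markers looked at, 5 rose and 2 fell (ZEB2 and SPARC, to 43.0% and 69.7% of the NC siRNA level). Of the 8 epithelial ones, 2 were expressed highly enough to be tested, CDH3 at 10.3 CPM and KRT18 at 4.63 CPM in NC siRNA cells, and both fell, to 4.27% and 9.93%. ESRP2, which was not tested, had 8, 7 and 2 counts in NC siRNA and 13, 23 and 17 in BNC2 siRNA cells. The part of these changes in the results for antisense RNAs was not tested. A gene was tested with edgeR's quasi-likelihood test where it had more than 1 CPM in at least 3 libraries, and counts as called where the Benjamini-Hochberg adjusted p was at most 0.05. Of 12186 genes tested, 72.9% were called, 36.6% higher and 36.2% lower in BNC2 siRNA cells, and in 74.9% the libraries of the 2 groups did not overlap.

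Of the 25 antisense RNAs called, 7 start within 1 kb of their partner and point away from it, judged by the canonical start of each gene. In each of these pairs 1 stretch of DNA lies upstream of both canonical starts. The annotated genes KTN1, KTN1-AS1 and TIPARP reach across the whole of their stretch. Both genes were called in these 7 pairs, 4 in the same direction and 3 (KLHL7, TPT1 and ZNFX1) in opposite directions. Promoters are shown for the 5 in which 1 window holds both starts, which leaves out TPT1 and ZNFX1 with starts 300 and 585 bases apart. Each window holds 250 bases before and 50 bases after the start of the antisense RNA, on its own strand, in GRCh37 (the assembly of hg19). Capitals mark the bases from one start to the other, both starts included.
KTN1-AS1, chr14:56046784-56047083, minus strand: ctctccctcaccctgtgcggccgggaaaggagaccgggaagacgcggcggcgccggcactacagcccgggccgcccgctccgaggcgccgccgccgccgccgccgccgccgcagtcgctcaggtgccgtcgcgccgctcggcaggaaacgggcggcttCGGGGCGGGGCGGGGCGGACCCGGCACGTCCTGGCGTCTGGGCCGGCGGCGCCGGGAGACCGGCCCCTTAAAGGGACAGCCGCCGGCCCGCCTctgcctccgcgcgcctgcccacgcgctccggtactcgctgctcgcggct
KLHL7-AS1, chr7:23145273-23145572, minus strand: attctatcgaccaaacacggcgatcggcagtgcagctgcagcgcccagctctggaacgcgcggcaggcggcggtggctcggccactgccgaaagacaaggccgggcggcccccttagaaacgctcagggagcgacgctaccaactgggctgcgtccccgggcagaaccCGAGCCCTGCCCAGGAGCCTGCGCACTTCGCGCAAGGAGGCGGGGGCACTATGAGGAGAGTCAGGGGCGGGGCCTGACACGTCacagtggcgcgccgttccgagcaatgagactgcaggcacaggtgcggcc
BOLA3-AS1, chr2:74374956-74375255, plus strand: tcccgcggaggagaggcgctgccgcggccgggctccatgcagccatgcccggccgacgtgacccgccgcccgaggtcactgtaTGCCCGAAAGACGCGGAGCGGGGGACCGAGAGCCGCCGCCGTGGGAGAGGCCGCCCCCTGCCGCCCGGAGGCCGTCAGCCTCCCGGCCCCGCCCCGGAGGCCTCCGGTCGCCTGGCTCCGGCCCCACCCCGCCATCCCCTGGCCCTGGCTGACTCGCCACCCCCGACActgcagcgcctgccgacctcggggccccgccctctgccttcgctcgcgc
TIPARP-AS1, chr3:156392186-156392485, minus strand: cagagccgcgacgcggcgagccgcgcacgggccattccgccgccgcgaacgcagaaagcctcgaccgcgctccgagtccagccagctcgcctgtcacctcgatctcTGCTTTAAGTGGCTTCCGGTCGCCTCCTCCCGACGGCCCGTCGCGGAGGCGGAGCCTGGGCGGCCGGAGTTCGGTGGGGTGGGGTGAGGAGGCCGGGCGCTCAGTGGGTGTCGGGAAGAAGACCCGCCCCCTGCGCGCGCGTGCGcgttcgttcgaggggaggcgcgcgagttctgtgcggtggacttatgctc
MAFG-AS1, chr17:79885455-79885754, plus strand: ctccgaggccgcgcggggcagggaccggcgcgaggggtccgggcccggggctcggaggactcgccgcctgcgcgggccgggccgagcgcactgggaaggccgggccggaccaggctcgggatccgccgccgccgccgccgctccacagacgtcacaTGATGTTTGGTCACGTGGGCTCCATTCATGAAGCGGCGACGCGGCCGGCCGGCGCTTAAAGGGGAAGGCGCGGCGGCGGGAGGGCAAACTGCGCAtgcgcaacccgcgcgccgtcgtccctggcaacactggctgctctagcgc

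The starts are 92 bases apart in KTN1, 82 in KLHL7, 167 in BOLA3, 144 in TIPARP and 94 in MAFG. These windows hold 53, 31, 40, 46 and 47 CpG dinucleotides in that order, and have a GC content of 68.7% to 80.0%. The median window over all 21224 promoters read in the same way holds 22, and that over 41 antisense RNAs tested holds 30. Medians were 28 for the RNAs called higher and 26.5 for those called lower. CIRBP-AS1, which had the largest fall among the antisense RNAs tested, starts inside its partner, 928 bases after the start of CIRBP.

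Letters searched on both strands of these windows were the CCAAT box, the GC box (GGGCGG), the TATA box (TATAAA), an AP-1 site (TGANTCA), an E-box (CACGTG) and the core of an NRF1 site (TGCGCA). No searched motif contains another. A window was read for 41 of the 42 antisense RNAs tested. CCAAT is in 8 of the 41 windows and in 35.7% of all promoters. The GC box is in 24 of 41 windows (57.8% of all promoters), the TATA box in 5 (10.1%), the E-box in 4 (8.42%), the NRF1 core in 7 (10.3%) and the AP-1 site in 0 (5.70%). In the 9 windows of RNAs called higher and the 16 of RNAs called lower, CCAAT is in 5 and 1, the GC box in 7 and 9, the TATA box in 1 and 3, the E-box in 1 and 1, and the NRF1 core in 1 and 3. The 12 antisense RNAs that start head to head with their partner have a median of 35.5 CpG dinucleotides in their windows. These matches describe the windows only.

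Most antisense RNAs were scarce in these cells. Of the 149, 33 had 0 counts in every library, and 71, these included, had at most 3 counts in each. The filter was passed by 42 (28.2%), with a median of 2.43 CPM against 31.5 CPM over all genes tested. Reads were concentrated in few of them, since C17orf76-AS1, ZNFX1-AS1, FGD5-AS1, HNRNPU-AS1 and TP73-AS1 held 79.8% of the counts of all 149 (counts not corrected for length). The sum over the 149 was 629 ± 14.1 CPM (SD, n = 3) in NC siRNA cells and 743 ± 9.29 CPM (SD, n = 3) in BNC2 siRNA cells. This difference comes from C17orf76-AS1, since the other 148 summed to 396 ± 4.01 and 378 ± 3.64 CPM (SD, n = 3).

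Of the 42 tested, 25 were called (59.5%), 9 higher and 16 lower in BNC2 siRNA cells, and 17 were not called. The share called was below the 72.9% of all genes. Falls were 38.1% of the RNAs tested and rises 21.4%, against 36.2% and 36.6% of all genes. Precision differed as well, with a median standard error of 0.24 on the log2 scale for the antisense RNAs and 0.087 for all genes. Of the 30 antisense RNAs with a mean under 5 CPM, 17 were called (56.7%), and of all genes tested at that level 64.3% were called. The median log2 fold change was -0.24 for the antisense RNAs and 0.00 for all genes, and the median size of the change, whichever its sign, was 0.66 and 0.44. The value of -0.24 depended on which library was left out and on the filter, as given in the closing section. The 2 groups of libraries did not overlap for 26 antisense RNAs (61.9%, against 74.9% of all genes), of which 10 were above and 16 below. SLC25A5-AS1 was called although its libraries overlapped. In RNA of whole cultures, fewer cells with an RNA and less of it per cell cannot be told apart.

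**Figure D1:**
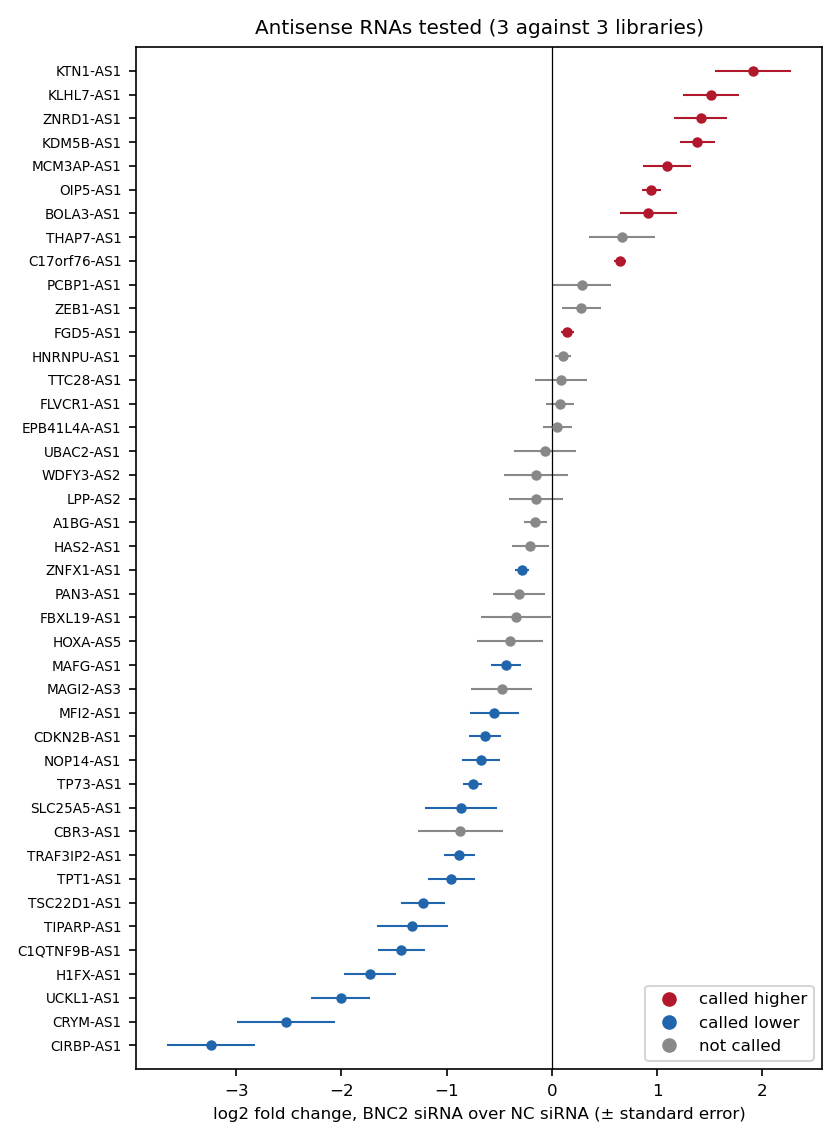
Log2 fold change (BNC2 siRNA over NC siRNA, horizontal axis) with its standard error for each of the 42 antisense RNAs tested, 3 against 3 libraries, sorted by size. Points for the 9 RNAs called higher are red and for the 16 called lower blue, from -3.24 for CIRBP-AS1 to 1.91 for KTN1-AS1.

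Among the rises, the largest were in RNAs with few reads in control cells. KTN1-AS1, next to the gene of kinectin, a kinesin receptor of the endoplasmic reticulum, had 6, 15 and 4 counts in NC siRNA and 34, 31 and 27 counts in BNC2 siRNA cells. The groups did not overlap, and the RNA rose 3.76-fold (log2 fold change 1.91 ± 0.36 SE, adjusted p = 0.00016). Without NC siRNA replicate 2 the log2 fold change was 2.61. KTN1-AS1 was over 1 CPM in BNC2 siRNA libraries only, and so passed the filter only through the group where it was high.

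KLHL7-AS1, next to the gene of a substrate adaptor of a cullin ubiquitin ligase, had 13, 18 and 11 counts in NC siRNA and 45, 39 and 33 counts in BNC2 siRNA cells, a rise of 2.86-fold. ZNRD1-AS1 lies in the major histocompatibility region of chromosome 6, beside a gene of an RNA polymerase I subunit. It had 15, 14 and 16 counts in NC siRNA and 37, 43 and 37 counts in BNC2 siRNA cells, a rise of 2.67-fold. In both RNAs the treatments were well apart, and the adjusted p-values were 8.2e-05 and 8.5e-05. ZNRD1-AS1 was over 1 CPM in BNC2 siRNA libraries only, and so passed the filter only through the group where it was high.

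KDM5B-AS1, now named PCAT6, begins 2429 bases from the start of the gene of the histone demethylase KDM5B. Its counts were 37, 44 and 43 in NC siRNA and 109, 114 and 92 in BNC2 siRNA cells, a log2 fold change of 1.38 ± 0.17 (SE), with an adjusted p of 1.2e-06. MCM3AP-AS1, antisense to a scaffold of nuclear mRNA export, had 47, 29 and 25 counts against 58, 79 and 72, a log2 fold change of 1.09 ± 0.23 (SE), with an adjusted p of 0.0004. These 2 rose in every BNC2 siRNA library relative to every NC siRNA library.

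OIP5-AS1 is a conserved and well-expressed noncoding RNA, also known as cyrano, that is known for directing the decay of a microRNA. It had 16.7, 14.9 and 15.2 CPM in NC siRNA and 27.3, 30.1 and 32.9 CPM in BNC2 siRNA cells. The groups were far apart next to their spread, at 15.6 ± 0.943 and 30.1 ± 2.76 CPM (SD, n = 3), and the RNA rose 1.93-fold (log2 fold change 0.95 ± 0.09 SE, adjusted p = 1.2e-07).

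BOLA3-AS1, next to a gene of mitochondrial iron-sulphur cluster assembly, had 19, 22 and 18 counts in NC siRNA and 28, 35 and 45 in BNC2 siRNA cells (log2 fold change 0.92 ± 0.27 SE, adjusted p = 0.0064). When reads of both strands were counted, its log2 fold change was 0.45 with an adjusted p of 0.12. The remaining 2 RNAs called higher were the abundant C17orf76-AS1 and FGD5-AS1.

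C17orf76-AS1, now named SNHG29, is a host of small nucleolar RNAs and had the most reads of the 149. It was at 231, 247 and 219 CPM in NC siRNA and 376, 362 and 356 CPM in BNC2 siRNA cells, a rise of 1.57-fold (log2 fold change 0.65 ± 0.06 SE, adjusted p = 3.4e-08). ZNFX1-AS1, now named ZFAS1, is another host of small nucleolar RNAs and went the other way, from 78.3, 81.9 and 90.2 CPM to 68.3, 69.6 and 68.2 CPM (log2 fold change -0.28 ± 0.07 SE, adjusted p = 0.0011). The groups of another host, EPB41L4A-AS1, overlapped, at 7.07 ± 0.972 and 7.30 ± 0.597 CPM (SD, n = 3). Its log2 fold change was 0.05 (95% interval -0.22 to 0.33).

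FGD5-AS1 had 91.0, 85.5 and 81.7 CPM in NC siRNA and 97.7, 94.0 and 94.5 CPM in BNC2 siRNA cells. Its groups did not overlap, but the log2 fold change was only 0.15 ± 0.06 (SE), with an adjusted p of 0.039. The call was lost with DESeq2 (adjusted p = 0.070), with the replicate block (0.087) and with scaling by total counts only (log2 fold change 0.07, adjusted p = 0.33). It was also lost in 5 of the 6 fits that left out 1 library, over which the log2 fold change was 0.11 to 0.19. Only the fit without NC siRNA replicate 1 kept it. HNRNPU-AS1 was at 61.6, 52.7 and 54.1 CPM in NC siRNA and 57.5, 64.6 and 59.5 CPM in BNC2 siRNA cells and was not called (log2 fold change 0.11 ± 0.07 SE). Without NC siRNA replicate 1 its log2 fold change was 0.18 with an adjusted p of 0.030. With both strands counted, by the unstranded column of the aligner, its log2 fold change was -0.016. For HNRNPU-AS1 that column held 2054 reads in NC siRNA cells, fewer than the 2933 on its own strand alone.

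The deepest falls were in antisense RNAs with a mean of 1.40 to 5.28 CPM in control cells. CIRBP-AS1, antisense to the cold-inducible RNA-binding protein, had 22, 31 and 28 counts in NC siRNA and 3, 3 and 2 counts in BNC2 siRNA cells. Its 8 counts in BNC2 siRNA cells are 10.2% of the NC siRNA level (95% interval 4.25% to 21.0%, counting error only), and the fall passed the test with an adjusted p of 2.6e-06. CRYM-AS1 had 33, 18 and 22 counts against 4, 7 and 1. Here 12 counts remained of 73, which is 17% of the NC siRNA level (95% interval 8.38% to 31.4%, again counting error only). The adjusted p was 0.00011, and without BNC2 siRNA replicate 2 the log2 fold change was -3.14 in place of -2.53. Both RNAs were over 1 CPM in NC siRNA libraries only, so they passed the filter only through the group where they were high. With no filter on low counts their log2 fold changes were -3.21 and -2.50.

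UCKL1-AS1, antisense to a gene of the uridine-cytidine kinase family, had 43, 53 and 54 counts in NC siRNA and 16, 13 and 7 in BNC2 siRNA cells, which left 24.9% (log2 fold change -2.01 ± 0.28 SE). H1FX-AS1, antisense to the gene of a linker histone, had 88, 119 and 70 counts against 34, 32 and 15, which left 30.2% (log2 fold change -1.73 ± 0.25 SE). C1QTNF9B-AS1, antisense to a gene of the adiponectin-related secreted proteins, had 60, 62 and 67 counts against 22, 29 and 17, which left 37.1% (log2 fold change -1.43 ± 0.22 SE). No BNC2 siRNA library reached the lowest NC siRNA library in any of these 3, and the adjusted p-values were 6.7e-06, 8.3e-06 and 2.0e-05. UCKL1-AS1 was over 1 CPM in NC siRNA libraries only, and so passed the filter only through that group.

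TIPARP-AS1, next to a gene of an ADP-ribosyltransferase of the dioxin response, had 35, 33 and 33 counts against 18, 17 and 4. BNC2 siRNA replicate 3 was well below the other two, and the log2 fold change was -1.32 ± 0.34 (SE), with an adjusted p of 0.0021. TSC22D1-AS1, antisense to a TGF-beta-stimulated transcription factor, had 63, 63 and 57 counts against 24, 32 and 20 (log2 fold change -1.22 ± 0.21 SE, adjusted p = 6.4e-05). TPT1-AS1, next to the gene of translationally controlled tumour protein, had 56, 53 and 55 counts against 21, 34 and 27 (log2 fold change -0.95 ± 0.22 SE, adjusted p = 0.00097). For both RNAs the 3 NC siRNA libraries were tightly grouped and the BNC2 siRNA libraries spread more widely.

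TRAF3IP2-AS1, antisense to an adaptor of interleukin-17 receptor signalling, had 123, 119 and 104 counts in NC siRNA and 65, 64 and 53 in BNC2 siRNA cells (log2 fold change -0.88 ± 0.15 SE, adjusted p = 4.8e-05). TP73-AS1, next to the gene of a p53 family member, fell from 31.9, 29.5 and 28.1 CPM to 19.0, 16.1 and 18.1 CPM (log2 fold change -0.75 ± 0.09 SE, adjusted p = 1.2e-06). It was the abundant antisense RNA with the deepest fall, among the 5 that held most reads. The other 6 falls were in SLC25A5-AS1, NOP14-AS1, CDKN2B-AS1, MFI2-AS1, MAFG-AS1 and ZNFX1-AS1, at log2 fold changes of -0.86 to -0.28.

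Some of these smaller falls were near the threshold, and their calls depend on the setting. MFI2-AS1 (log2 fold change -0.55, adjusted p = 0.043) was not called without NC siRNA replicate 2 or 3 (-0.59 and -0.37) or without BNC2 siRNA replicate 1 or 2 (-0.47 and -0.54). With all 6 libraries it was not called with DESeq2 (adjusted p = 0.095), without the filter (0.062) or with the replicate block (0.057). SLC25A5-AS1 (-0.86, adjusted p = 0.032) was not called without NC siRNA replicate 3 (-0.63) or without BNC2 siRNA replicate 1 or 2 (-0.70 and -0.68), nor with DESeq2 (adjusted p = 0.064). MAFG-AS1 (-0.44, adjusted p = 0.010) had an adjusted p of 0.054 without NC siRNA replicate 2. In each of these cases the direction was kept.

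Among RNAs not called, CBR3-AS1 (log2 fold change -0.87, adjusted p = 0.065) and THAP7-AS1 (0.67, adjusted p = 0.062) were nearest to the threshold. CBR3-AS1 had 24, 18 and 15 counts in NC siRNA and 6, 7 and 17 in BNC2 siRNA cells, and without BNC2 siRNA replicate 3 it was called at -1.54. It was also called with the likelihood ratio test of the methods (adjusted p = 0.020), with scaling by total counts only (0.046) and with both strands counted (0.0032). THAP7-AS1 had 13, 18 and 15 counts against 31, 18 and 22, and was called at 0.86 without BNC2 siRNA replicate 2 and with the likelihood ratio test (adjusted p = 0.035). FBXL19-AS1 was called without BNC2 siRNA replicate 3 (-0.82) and MAGI2-AS3 without NC siRNA replicate 2 (-0.71), from main values of -0.34 and -0.48.

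Antisense RNAs of the HOX clusters, of EMT transcription factors and of collagen, laminin, integrin, MMP, ADAM, ADAMTS and hyaluronan synthase genes were looked at as a group, since BT549 is a mesenchymal line. The 11 such rows are ZEB1-AS1, ZEB2-AS1, HOXA-AS3, HOXA-AS5, HOXB-AS3, HOXB-AS5, HOXD-AS1, HOXD-AS2, COL18A1-AS1, ADAMTS9-AS2 and HAS2-AS1. ZEB1-AS1, HOXA-AS5 and HAS2-AS1 passed the filter, and none of the 3 was called by the quasi-likelihood test, against 72.9% of all genes. None had an unadjusted p under 0.05, and none was called with DESeq2. ZEB1-AS1, next to the gene of an EMT transcription factor, had 4.11, 4.76 and 3.49 CPM in NC siRNA and 6.11, 4.96 and 3.95 CPM in BNC2 siRNA cells (log2 fold change 0.28, 95% interval -0.08 to 0.64). The groups overlapped, and the partner ZEB1 rose by a log2 fold change of 0.34. HOXA-AS5, now named HOXA11-AS, had 34, 20 and 18 counts against 21, 20 and 12 (log2 fold change -0.40, 95% interval -1.01 to 0.22). ZEB2-AS1 had 0 counts in each library.

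HAS2-AS1 is antisense to HAS2, the main hyaluronan synthase of mesenchymal cells, and lies on chromosome 8. It had 56, 68 and 59 counts in NC siRNA and 52, 50 and 52 in BNC2 siRNA cells (log2 fold change -0.20, 95% interval -0.55 to 0.15). HAS2 meanwhile rose from 24.2, 23.0 and 21.7 CPM to 78.3, 78.1 and 86.0 CPM, a log2 fold change of 1.81. The log2 ratio of antisense to sense counts thus moved by -2.01 (standard error 0.11). The sense gene rose 3.51-fold, while the interval of the antisense RNA includes no change.

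Sense partners were called about as often as other genes. Of the 137 partners 96 were tested, of which 42 were called higher, 28 lower and 26 not called, so that 72.9% were called, as for all genes. Their median log2 fold change was 0.13. In 36 pairs both genes were tested. Both were called in 18 of them, 8 in the same direction and 10 in opposite directions. Only the antisense RNA was called in 4 pairs, only the partner in 10 and neither in 4. Across the 36 pairs the 2 log2 fold changes had a Pearson r of 0.26 and a Spearman rho of -0.01, and without CRYM these were -0.06 and -0.09 over 35 pairs. These coefficients describe pairs measured in the same libraries, and pairs are not replicates.

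**Figure D2:**
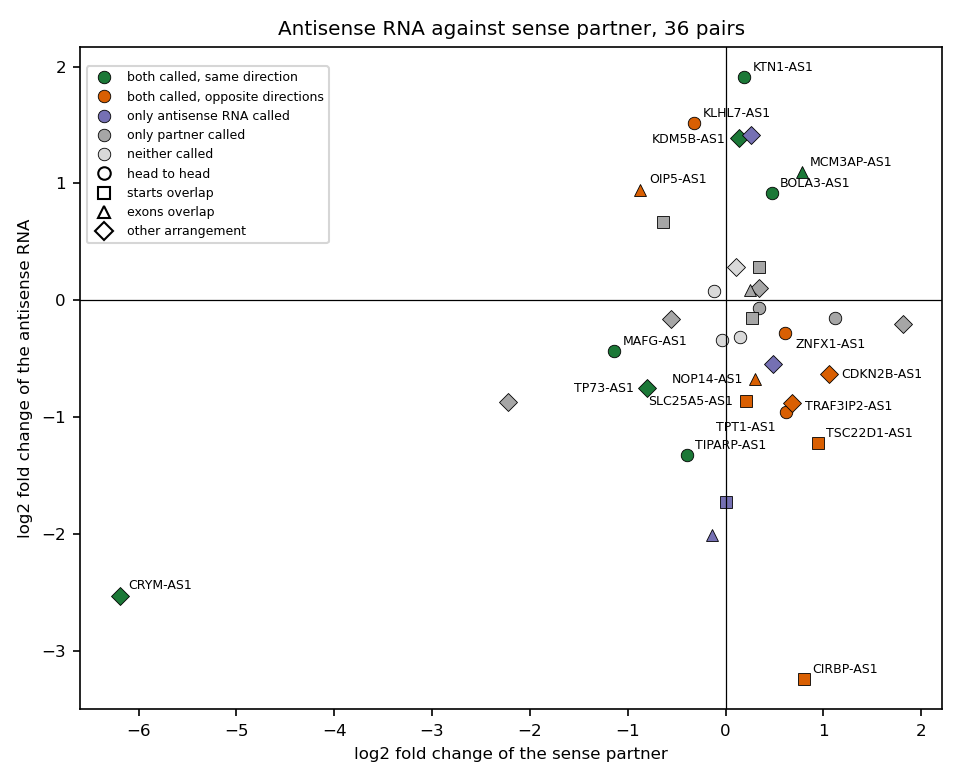
Log2 fold change of the antisense RNA (vertical axis) against that of its sense partner (horizontal axis) for the 36 pairs with both genes tested. Colour gives which genes were called, shape how the 2 genes lie, and the 8 pairs in green and 10 in orange are named by the antisense RNA. The point of CRYM-AS1 at the far left rests on 1 count of CRYM in BNC2 siRNA cells.

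In 8 of the 10 opposite pairs the antisense RNA fell and the partner rose. Calls of single genes lean the same way, with 9 antisense RNAs higher and 16 lower, and 42 partners higher and 28 lower. Whether the pairs differ from that was not tested. CIRBP had 38.0, 36.7 and 32.7 CPM in NC siRNA and 63.6, 58.2 and 66.3 CPM in BNC2 siRNA cells (log2 fold change 0.81 ± 0.08 SE, adjusted p = 7.9e-08), opposite to the fall of CIRBP-AS1. The log2 ratio of antisense to sense counts (0.5 added to each) changed by -3.88 (standard error 0.25), and by -3.39 with 2 counts added. TSC22D1 had 83.8, 82.4 and 79.5 CPM against 157, 157 and 158 CPM (log2 fold change 0.94 ± 0.06 SE, adjusted p = 2.2e-10), while TSC22D1-AS1 fell. The ratio of that pair changed by -2.17 (standard error 0.15), and within each treatment the partner's libraries lay close together.

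CDKN2B-AS1, also known as ANRIL, runs antisense through the locus of the cell cycle inhibitor CDKN2B and is known for an association with Polycomb proteins. It fell from 5.97, 6.83 and 5.54 CPM to 4.07, 3.89 and 3.88 CPM (log2 fold change -0.63 ± 0.15 SE, adjusted p = 0.0013). CDKN2B rose from 30.8, 31.0 and 31.5 CPM to 61.2, 65.7 and 67.4 CPM (log2 fold change 1.06 ± 0.07 SE, adjusted p = 7.1e-10). The groups did not overlap for either gene, and the log2 ratio changed by -1.68 (standard error 0.11).

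The other 5 pairs with a lower antisense RNA and a higher partner were those of TPT1, TRAF3IP2, ZNFX1, NOP14 and SLC25A5. Their partners rose by log2 fold changes of 0.62, 0.68, 0.61, 0.31 and 0.21 in that order. TPT1, an abundant messenger RNA of growing cells, was at 1067, 1157 and 1177 CPM in NC siRNA and 1812, 1774 and 1649 CPM in BNC2 siRNA cells. The ratio changed by -1.59 (standard error 0.22) for TPT1 and by -1.56 (standard error 0.07) for TRAF3IP2. In the SLC25A5 pair the ratios of the 2 groups overlapped.

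OIP5 and KLHL7 were the reverse cases, with a higher antisense RNA and a lower partner. OIP5, a factor of centromere assembly in dividing cells, fell from 202, 216 and 168 counts to 100, 124 and 87 counts (log2 fold change -0.87 ± 0.13 SE, adjusted p = 1.7e-05), while OIP5-AS1 rose. KLHL7 had 17.3, 17.1 and 17.2 CPM in NC siRNA and 14.0, 14.5 and 12.8 CPM in BNC2 siRNA cells (log2 fold change -0.32 ± 0.09 SE, adjusted p = 0.0059). The log2 ratio rose by 1.82 (standard error 0.16) in the OIP5 pair and by 1.83 (standard error 0.20) in the KLHL7 pair.

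**Figure D3:**
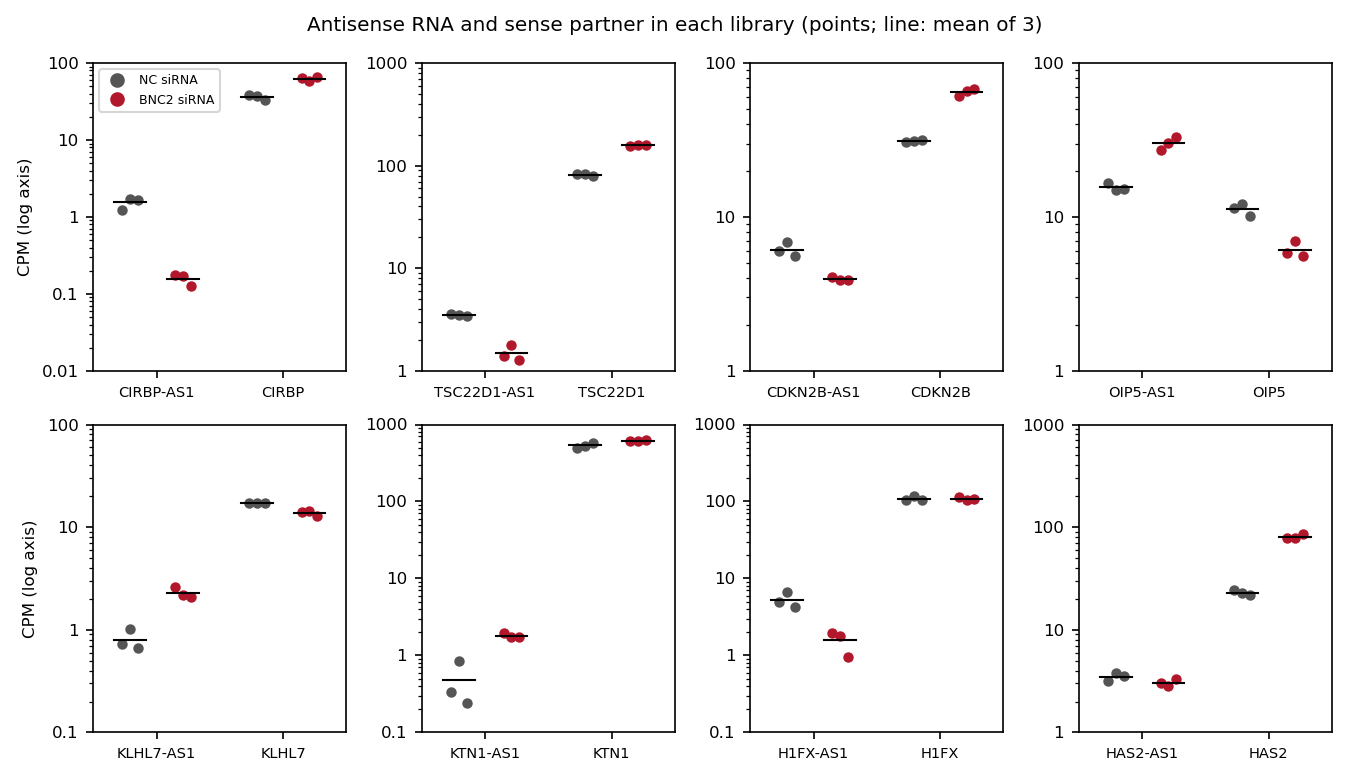
TMM-scaled CPM (log axis) of the antisense RNA and its partner in each of the 3 NC siRNA (grey) and 3 BNC2 siRNA (red) libraries for 8 pairs, with the mean as a line. In the pairs of CIRBP, TSC22D1 and CDKN2B the antisense RNA is lower and the partner higher in every BNC2 siRNA library, in those of OIP5 and KLHL7 the reverse, and H1FX overlaps between treatments.

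The 8 pairs called in the same direction were those of KTN1, KDM5B, MCM3AP and BOLA3, which were higher, and of CRYM, TIPARP, TP73 and MAFG, which were lower. In most of them 1 gene moved more than the other. KTN1 rose by a log2 fold change of 0.19 and KDM5B by 0.13 (adjusted p = 0.047), against 1.91 and 1.38 for their antisense RNAs. TIPARP fell by 0.39 on the log2 scale and its antisense RNA by 1.32. The reverse held for MAFG, a small Maf transcription factor, which fell from 62.7, 61.2 and 58.9 CPM to 27.8, 28.5 and 26.9 CPM (log2 fold change -1.14) while MAFG-AS1 fell by 0.44.

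TP73 and TP73-AS1 moved by similar amounts, with log2 fold changes of -0.81 and -0.75 and a change of the log2 ratio of 0.07 (standard error 0.28). CRYM, a thyroid hormone-binding protein, was nearly lost, with 34, 37 and 32 counts in NC siRNA and 0, 0 and 1 counts in BNC2 siRNA cells. The 1 count is 1.00% of the NC siRNA level (95% interval 0.0251% to 5.70%, counting error only). CRYM-AS1 was matched to a pseudogene locus only through a synonym, so its place relative to CRYM is uncertain.

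In 4 pairs the antisense RNA was called and the partner was not. H1FX had 104, 116 and 105 CPM in NC siRNA and 115, 104 and 109 CPM in BNC2 siRNA cells (log2 fold change 0.01 ± 0.06 SE), next to a fall of its antisense RNA to 30.2%. The log2 ratio changed by -1.77 (standard error 0.35). The partners UCKL1, ZNRD1 and MFI2 had log2 fold changes of -0.13, 0.26 and 0.49 with adjusted p-values of 0.093, 0.066 and 0.23, so smaller changes of these genes could not be told from none. In 10 pairs it was the partner alone. CBR3, a carbonyl reductase, fell from 36.4, 40.3 and 39.1 CPM to 8.49, 7.84 and 8.47 CPM. LPP, a focal adhesion protein, rose by a log2 fold change of 1.12, with LPP-AS2 at -0.15 (standard error 0.26), and at 0.12 without NC siRNA replicate 2.

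Positions in the GENCODE annotation of GRCh37 were found for 140 of the 149. Of the 42 tested, 12 start head to head with the partner, judged by the canonical start of each gene, and 5 of these 12 also overlap the partner's gene. Another 8 start within 1 kb on the inner side of the partner's start, and 8 lie further off with overlapping exons. A further 10 overlap the partner's gene without overlapping its exons, 1 does not overlap, and 3 could not be placed with a partner. Exons here are those of the canonical transcript of each gene, and other transcripts were not compared. Head-to-head starts are a median of 155.5 bases apart. Of these 12 pairs 4 were called in the same direction and 3 in opposite directions. Of the 7 tested pairs with overlapping starts, 3 were called in opposite directions and 0 in the same direction. Those of TSC22D1, WDFY3, THAP7 and H1FX in this class also share exon bases (378, 465, 233 and 119). Pairs further off with overlapping exons gave 1 pair in the same and 2 in opposite directions among 5. These numbers are small and were not tested against each other.

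In the log2 ratio of antisense to sense counts, the 2 groups of libraries did not overlap in 25 of 40 pairs. The BNC2 siRNA libraries were above in 10 and below in 15. Of single genes, 74.9% separate in this way, so these counts are not particular to ratios of such pairs. Adding 2 counts in place of 0.5 to both genes kept the sign of every pair, and moved the change most in the CRYM pair, by 1.14, where the partner is near 0.

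Strand matters for such pairs, since reads of an abundant partner can be counted on the wrong strand. Over 3997 genes with at least 1000 counts on average, a median of 0.651% of reads lay on the opposite strand (quartiles 0.355% and 1.15%), which includes true antisense reads. In 10 of the 42 antisense RNAs the opposite strand of the same exons held more reads than their own. TSC22D1-AS1 had 183 and 76 reads on its own strand in NC siRNA and BNC2 siRNA cells (sums of 3 libraries) and 190 and 560 on the opposite one. If 0.651% of those were misassigned they would give more than 5% of the RNA's counts in 4 cases, SLC25A5-AS1 (up to 13.9%), CBR3-AS1 (8.66%), UCKL1-AS1 (5.35%) and NOP14-AS1 (5.26%). The share of wrong-strand reads in each single RNA was not tested.

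**Figure D4:**
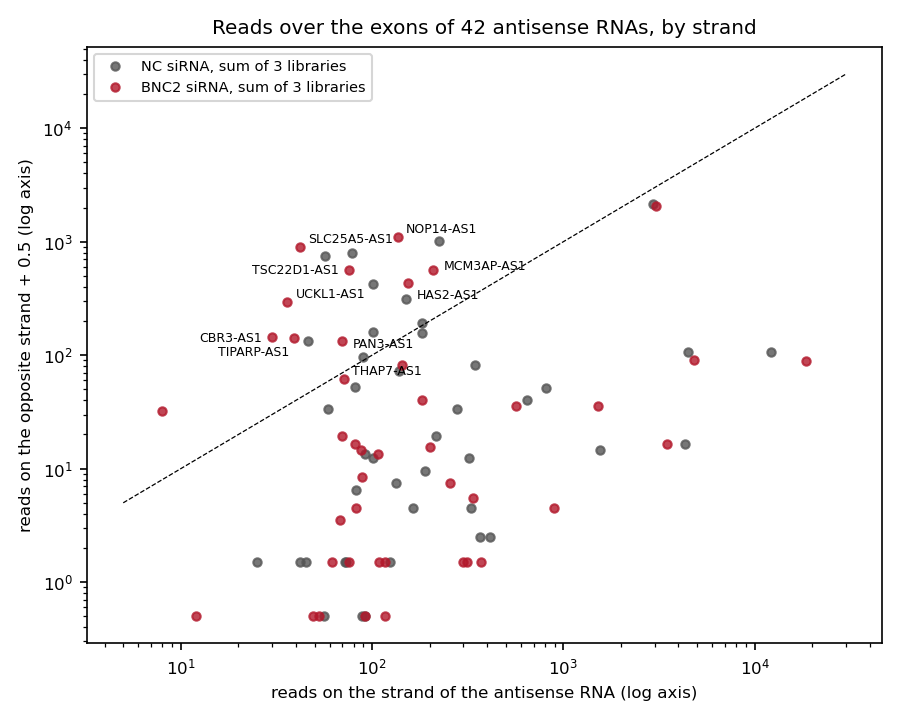
Reads on the strand opposite to each antisense RNA (vertical axis, 0.5 added) against reads on its own strand (horizontal axis), both on log axes, as sums of 3 libraries for NC siRNA (grey) and BNC2 siRNA (red). The dashed line marks equal numbers, and the 10 named RNAs have more opposite-strand than own-strand reads over all 6 libraries.

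Reads antisense to the exons of a partner give a second reading that the deposited table leaves out. On the antisense strand of the CIRBP exons the NC siRNA libraries had 104, 115 and 125 reads and the BNC2 siRNA libraries 42, 29 and 39. These were 6.61 ± 0.846 and 2.19 ± 0.478 CPM (SD, n = 3), so 33.1% was left while CIRBP itself rose. They made up 15.5% of the reads on both strands of CIRBP in NC siRNA and 3.36% in BNC2 siRNA cells. The exons of the canonical GENCODE transcripts of CIRBP-AS1 and CIRBP share 0 bases, and their other transcripts were not compared. Over EPB41L4A, itself at 3 and 4 counts in the 2 groups, there were 111, 118 and 123 antisense reads against 180, 219 and 172, a rise to 167% (6.76 ± 0.590 to 11.3 ± 0.980 CPM, SD, n = 3). Exons of the canonical transcript of EPB41L4A-AS1 share 2200 bases with those of EPB41L4A. The row of EPB41L4A-AS1 had 368 and 371 counts in the 2 groups, and which reads the 2 readings share was not tested. Of the 40 partners looked at, the groups did not overlap in 12, 2 with more and 10 with fewer antisense reads in BNC2 siRNA cells. Over all 12186 genes tested, opposite-strand reads were higher without overlap in 4.37% and lower without overlap in 23.1%, and these reads were not put to a test. The total of opposite-strand reads also fell, from between 2.09% and 2.14% of the reads on genes in NC siRNA libraries to between 1.59% and 1.86% in BNC2 siRNA libraries, and its part in those 10 was not tested.

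Of the 107 antisense RNAs under the filter, 74 had at least 1 count. A few of these are given as counts. GRIK1-AS2 had 13, 13 and 17 counts in NC siRNA and 5, 5 and 8 in BNC2 siRNA cells, FAM13A-AS1 14, 12 and 19 against 7, 9 and 3, and WWTR1-AS1, next to the gene of the Hippo pathway coactivator TAZ, 11, 10 and 11 against 5, 6 and 3. ARHGAP5-AS1 had 14, 9 and 11 counts against 14, 17 and 19. Without the filter neither WWTR1-AS1 (adjusted p = 0.10) nor ARHGAP5-AS1 (0.19) was called by edgeR. When every gene with at least 1 count was tested, 53.3% of genes were called, and 6 of the 74, 1 higher and 5 lower. The rise was in RBM26-AS1, with 2, 0 and 2 counts against 12, 10 and 6. The falls were in GRIK1-AS2, FAM13A-AS1, ZRANB2-AS1, CYP1B1-AS1 and C20orf166-AS1, the last with 3, 8 and 3 counts against 0 in each BNC2 siRNA library.

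Other antisense and overlapping RNAs are rows whose symbols end in -AS without a digit, or in -OT or -IT with or without one, with a few known by other names such as HOTAIR. Of 24 such rows 4 were tested and 3 called, next to 72.9% of all genes. HOTAIR, antisense to the HOXC cluster and known for binding Polycomb proteins, had 63, 41 and 55 counts in NC siRNA and 20, 26 and 17 in BNC2 siRNA cells, which left 40.9% (log2 fold change -1.29 ± 0.25 SE, adjusted p = 0.00019). KCNQ1OT1, the imprinted antisense RNA of KCNQ1, fell from 92.5, 91.6 and 101 CPM to 77.7, 86.5 and 81.6 CPM (log2 fold change -0.21 ± 0.06 SE, adjusted p = 0.0073). ANP32A-IT1, within an intron of a gene of a nuclear phosphoprotein, rose from 21, 17 and 17 counts to 27, 46 and 53 (log2 fold change 1.24 ± 0.29 SE, adjusted p = 0.0012). The fourth, SND1-IT1, had a log2 fold change of -0.06 (standard error 0.33).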

How the data were processed

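The authors isolated poly(A) RNA, aligned single-end reads to hg19 with STAR 2.6.1d and the iGenomes UCSC annotation, and deposited unnormalised counts of uniquely mapped reads per gene, which equal STAR's reverse-strand column in every gene. Reads on no gene (37.7% to 41.1% of a library) stayed out of library sizes. Groups follow the labels. With R 4.3.3 and edgeR 4.0.16, genes over 1 CPM in at least 3 of 6 libraries were kept, scaled by TMM and compared with the quasi-likelihood test, with Benjamini-Hochberg adjustment over 12186 genes at 0.05. RNAs near 1 CPM rest on few reads, so counting error limits them. Some of them passed the filter only through the group where they were high, among them KTN1-AS1, ZNRD1-AS1, UCKL1-AS1, CIRBP-AS1 and CRYM-AS1. Alternatives were the likelihood ratio test of the methods, DESeq2 1.42.0, its size factors, total counts only, filterByExpr, no filter, a replicate block, each library left out, counts of both strands, 2 counts added to ratios and a split by gene arrangement. Counts of both strands are STAR's unstranded column, which for some RNAs holds fewer reads than their own strand alone. Members, lists and tests were chosen with earlier results of these data known. Named were the 10 largest rises and falls among called RNAs without overlap and with at least 1 CPM in the higher group, the 5 with most reads, those of HOX, EMT, collagen, laminin, integrin, MMP, ADAM, ADAMTS and HAS genes that passed the filter, the 5 opposite pairs that differed most, and RNAs under the filter with no overlap and at least 10 counts in each library of a group; others were named after their values were seen. Only 9 rises were called. Positions and canonical starts are those of GENCODE release 44 mapped to GRCh37, with 140 of 149 symbols matched, some through older names in RefSeq tables. Pandas 2.3.3 and scipy 1.17.1 were used for summaries.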

Additional observations from a re-analysis of the deposited data

How the results depend on the processing

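Over the 14 other settings, 20 of the 25 calls of antisense RNAs were kept in each. The exceptions were FGD5-AS1 (lost in 8 settings), MFI2-AS1 (7), SLC25A5-AS1 (4), BOLA3-AS1 (1) and MAFG-AS1 (1), and none of the 25 changed sign. RNAs not called in the main comparison were called in some settings, CBR3-AS1 in 4, THAP7-AS1 in 2 and FBXL19-AS1, HNRNPU-AS1 and MAGI2-AS3 in 1 each. Changes of sign were found among RNAs not called, namely HNRNPU-AS1 (-0.016), PAN3-AS1 (0.13) and UBAC2-AS1 (0.14) with both strands counted, EPB41L4A-AS1 with total counts only (-0.02), and LPP-AS2 (0.12), EPB41L4A-AS1 (-0.05), UBAC2-AS1 (0.33) and TTC28-AS1 (-0.15 and -0.12) without 1 library. Without each library in turn, the number called higher was 8 to 10 and lower 14 to 18, pairs in the same direction 6 to 10 and in opposite directions 9 to 11, and the median log2 fold change -0.27 to -0.11. With no filter on low counts that median was -0.48 over 116 antisense RNAs and 6 other antisense and overlapping RNAs were called, since more genes were tested. Split by arrangement, pairs in the same and in opposite directions were 4 and 6 where starts lie within 1 kb. They were 1 and 2 where starts lie further off and exons overlap, and 3 and 2 in the others, as fewer pairs enter. Without the 3 hosts of small nucleolar RNAs, 8 were called higher and 15 lower, and with at least 30 counts in every library of a group 7 and 13 (both chosen after seeing the data). The replicate block gave 8 higher and 15 lower, 7 pairs in the same direction and 10 in opposite directions, and FGD5-AS1 (adjusted p = 0.087) and MFI2-AS1 (0.057) were then not called by edgeR's quasi-likelihood test. The labels give replicates numbers only, and libraries with the same number did not deviate together (correlations -0.21, -0.08 and -0.13). Of the 42 tested, 30 have a mean under 5 CPM, and the median standard error of the 42 was 0.24 against 0.087 over all genes tested. The part of depth in the share called was not tested.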
